A study of Mus musculus with 7 samples.

Results

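The cadherins and protocadherins are a superfamily of calcium-dependent adhesion receptors, and 94 of their genes were followed in RNA of cultured fetal mouse kidneys, out of 23235 gene symbols in the deposited tables. The members were taken by symbol, as every Cdh gene with a number and every gene whose symbol begins with Pcdh. They comprised 5 type I classical cadherins, 13 type II classical cadherins, 5 other Cdh genes, 15 alpha, 22 beta and 22 gamma clustered protocadherins, and 12 non-clustered protocadherins. Every member had 1 entry in each table and an estimate with the status OK in all 7 libraries.

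The 7 libraries came from C57BL/6 kidneys in which beta-catenin was activated: 3 were also E2-2 deleted and 4 were E2-2 wildtype, so activated beta-catenin was shared by both genotypes. E2-2, the product of Tcf4, is an E protein, a class of transcription factors that pair up through a helix-loop-helix domain. Dissection was at 10.5 days post coitum, culture lasted 3 to 4 days, and the dams had received tamoxifen at 10.5 days post coitum (2 mg per 40 g of body weight). The labels do not give the driver of the recombinase, the deleted exons, the day count of each culture, or how many animals stand behind the libraries. The p-values therefore weigh a difference against the spread among libraries that may be technical repeats. Replicate numbers follow the order of deposit. Below, deleted and wildtype kidneys stand for the libraries of that genotype, not for a known number of kidneys or animals. The deposited names of E2-2 deleted replicate 3 and E2-2 wildtype replicates 3 and 4 begin with BM and those of the other libraries with BI, a prefix whose meaning the labels do not give.

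Classical cadherins bind like molecules on neighbouring cells through their outer domains and hold beta-catenin, alpha-catenin and p120-catenin through their cytoplasmic tails, so the protein that carries the Wnt signal is also a part of the adherens junction. In the developing kidney the ureteric bud and the tubules are known for E-cadherin and the kidney cadherin Cdh16, the early nephron for Cdh6 and R-cadherin, and the mesenchyme for Cdh11. Protocadherins lack the catenin-binding tail. The clustered ones lie in 3 neighbouring arrays, in which alpha and gamma transcripts join a variable exon to shared constant exons while each beta gene stands alone, and neurons use random combinations of them as a cell identity code. E2-2 has been described as a repressor of the E-cadherin promoter in a dog kidney epithelial line, which is the reason to look at Cdh1 in this comparison.

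Levels are FPKM, fragments scaled to transcript length in kilobases and to the mapped depth of the library, and so can be compared between genes. Differences are E2-2 deleted minus E2-2 wildtype on the log2(FPKM + 1) scale, on which a low gene's change looks smaller than it was. Differences of summed levels are instead taken on log2 of the sum, with nothing added. Depth inferred from the deposited intervals was 14.5 to 26.6 mega-fragments (M) per library. Tcf4 was at 39.1 ± 4.85 FPKM in deleted kidneys (SD, n = 3) and 43.7 ± 12.6 FPKM in wildtype kidneys (SD, n = 4); a whole-gene value can miss the loss of a few exons and does not check the genotype. The kidney markers Six2, Cited1, Epcam, Pax8 and Foxd1 were present in every library. E2-2 deleted replicate 2 and E2-2 wildtype replicate 3 stood apart: the summed level of 6 nephron progenitor markers was 52.3 FPKM in deleted replicate 2, against 121.5 to 274.6 FPKM in the other 6, and that of 9 ureteric epithelium markers was 98.2 FPKM in wildtype replicate 3, against 237.2 to 378.5 FPKM in the other 6. Not every marker followed its sum: Osr1 was not lowest in deleted replicate 2, nor were Calb1, Wnt9b and Wnt11 in wildtype replicate 3. In bulk RNA, fewer cells of a type and less RNA per cell cannot be told apart.

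Of the members, 60 averaged 1 FPKM or more and were tested, as part of 13466 such genes; the other 34 were too low. By limma 0 of the 60 passed an adjusted p of 0.05 (smallest 0.795), as did 0% of all genes tested. At an unadjusted p under 0.05 there were 2 members, Pcdhb19 and Pcdh10 (3.33%, both higher in deleted kidneys), against 4.49% of all genes, of which 3.29% were higher and 1.2% lower in deleted kidneys. The groups did not overlap in 5 members: 4 (Pcdhb19, Pcdhb21, Pcdhgb2 and Pcdh11x) lay above in deleted kidneys (6.67%, against 2.84% of all genes) and 1 (Pcdhb7) below (1.67%, against 2.05%). The difference was above 0 for 41 of the 60 members (68.3%) and for 39.3% of all genes, with medians of 0.13 and -0.05. The gamma protocadherins make up 22 of the 60 and share exons, so the members are not independent of each other. Without deleted replicate 2 the share of positive differences was 53.3% over all genes and 39 of 60 among the members.

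Among type I classical cadherins, E-cadherin, N-cadherin and P-cadherin were at similar levels, and no genotype difference stood out from the spread. Cdh1 (E-cadherin, the adhesion receptor of epithelia; chromosome 8, 109127268 to 109194146) was at 36.6, 23.5 and 24.2 FPKM in E2-2 deleted replicates 1 to 3 and at 26.9, 35.2, 8.30 and 36.0 FPKM in E2-2 wildtype replicates 1 to 4. Wildtype replicate 3 was far below all other libraries, and the other 3 wildtype libraries spanned nearly the range of the deleted ones. The means were 28.1 ± 7.36 FPKM (SD, n = 3) in deleted and 26.6 ± 12.9 FPKM (SD, n = 4) in wildtype kidneys, a difference of 0.23 (SE 0.47, 95% confidence interval -0.86 to 1.33; limma adjusted p = 0.893). The BI libraries alone gave -0.07 and the BM libraries alone 0.44, and leaving out wildtype replicate 3 gave -0.23.

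Cdh2 (N-cadherin, of mesenchyme and nerve) was steadier than either of the others. It was at 28.7, 24.9 and 26.0 FPKM in deleted replicates 1 to 3 and at 27.9, 23.8, 31.0 and 27.3 FPKM in wildtype replicates 1 to 4, a difference of -0.04 (SE 0.11, interval -0.30 to 0.21). The deleted values lay inside the wildtype range. Cdh3 (P-cadherin, of basal epithelium and placenta) was at 25.3, 22.9 and 23.3 FPKM in deleted and 21.6, 22.5, 32.5 and 24.2 FPKM in wildtype kidneys, with its highest value in wildtype replicate 3, where Cdh1 was lowest. Its difference was -0.06 (SE 0.15). Cdh4 (R-cadherin, of the forming nephron) was at 8.41, 5.58 and 6.30 FPKM in deleted and 7.71, 4.97, 8.01 and 9.56 FPKM in wildtype kidneys, a difference of -0.13 (SE 0.22). Cdh15, the M-cadherin of muscle, was not tested and stayed between 0.0635 and 0.420 FPKM.

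The ratio of Cdh1 to Cdh2, often read as a balance of epithelial to mesenchymal adhesion, was 1.27, 0.941 and 0.931 in deleted and 0.964, 1.48, 0.268 and 1.32 in wildtype kidneys. All deleted values fell within the wildtype range.

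**Figure D1:**
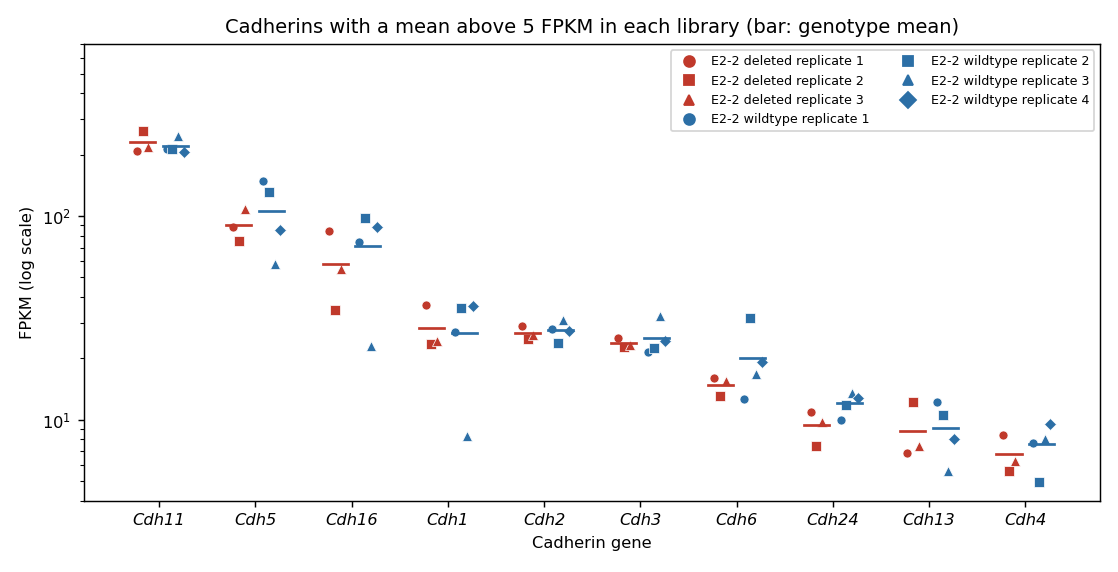
FPKM (log axis) of the 10 Cdh genes with a mean above 5 FPKM in each library, by gene; red marks E2-2 deleted and blue E2-2 wildtype libraries, shapes mark replicates and bars are genotype means. Cdh11 lies highest with 207 to 263 FPKM, and wildtype replicate 3 drops to 8.30 FPKM for Cdh1 and 22.9 FPKM for Cdh16.

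Type II cadherins were led by Cdh11 and Cdh5, the mesenchymal and the endothelial member. Cdh11 (OB-cadherin; chromosome 8, 105156895 to 105309011) was the highest member in every library and made up 44.6% to 59.5% of the summed FPKM of the 18 classical cadherins. It was at 209, 263 and 218 FPKM in deleted and 215, 214, 248 and 207 FPKM in wildtype kidneys, a difference of 0.05 (SE 0.14, interval -0.27 to 0.38). Deleted replicate 2 and wildtype replicate 3 were its highest libraries, and they were also the highest for Col1a1, the fibrillar collagen gene of the stroma list, at 1006 and 967.9 FPKM, against 452.3 to 623.3 FPKM in the other libraries. The other stroma markers did not follow this in deleted replicate 2, which was the highest library for Pdgfra but the lowest for Foxd1, Meis1 and Tcf21; wildtype replicate 3 was the highest for those 3. The part of the stroma in the Cdh11 level was not tested.

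Cdh5 (VE-cadherin, the junction receptor of endothelium) was at 88.5, 75.3 and 109 FPKM in deleted and 148, 132, 58.4 and 85.0 FPKM in wildtype kidneys, a difference of -0.14 (SE 0.32). The sign turned between the prefixes, with -0.77 within BI and 0.62 within BM. The summed level of 6 endothelial markers was 205.6 to 308.1 FPKM in deleted and 146.1 to 330.2 FPKM in wildtype kidneys, lowest in the same wildtype replicate 3, with none of the 6 at 0. Of the 6, 4 had a positive and 2 a negative difference. Tek alone did not overlap, at 9.01, 9.42 and 11.4 FPKM in deleted and 7.54, 7.93, 2.99 and 3.27 FPKM in wildtype kidneys (difference 0.86, SE 0.32, limma adjusted p = 0.795). Pcdh12, a protocadherin of endothelium, was at 7.12, 5.09 and 7.05 FPKM in deleted and 9.40, 12.7, 4.18 and 7.98 FPKM in wildtype kidneys (difference -0.29, SE 0.31). Its lowest library was wildtype replicate 3 too, and the part of endothelial content in either gene was not tested.

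Cdh6 (K-cadherin, of the early nephron and proximal tubule) was at 16.0, 13.0 and 15.5 FPKM in deleted and 12.6, 31.5, 16.8 and 19.2 FPKM in wildtype kidneys, a difference of -0.34 (SE 0.27; adjusted p = 0.795). Wildtype replicate 2 alone reached 31.5 FPKM, without which the difference was -0.11, and the remaining wildtype kidneys overlapped the deleted ones. Cdh24, a type II cadherin that binds catenins, had the smallest p of the negative differences. It was at 10.9, 7.46 and 9.74 FPKM in deleted and 10.01, 11.8, 13.5 and 12.8 FPKM in wildtype kidneys, a difference of -0.34 (SE 0.15; unadjusted p = 0.0612, adjusted p = 0.795; exact 2-sided permutation p = 0.0857; the 7 libraries allow none below 0.0286), and -0.20 without deleted replicate 2. The overlap came from deleted replicate 1, above wildtype replicate 1. Cdh22, Cdh8 and Cdh10 had means of 1 to 3 FPKM, with differences of 0.12, 0.33 and 0.10 (SE 0.19, 0.40 and 0.30). The other 6 type II genes, Cdh7, Cdh9, Cdh12, Cdh18, Cdh19 and Cdh20, were not tested, with no library above 1.26 FPKM.

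Cdh16 (Ksp-cadherin, of kidney tubule epithelium) was the highest of the other Cdh genes. It was at 84.3, 34.7 and 55.1 FPKM in deleted and 74.8, 97.5, 22.9 and 88.7 FPKM in wildtype kidneys, a difference of -0.19 (SE 0.52, interval -1.39 to 1.01). The wildtype range enclosed every deleted value. The BI libraries alone gave -0.65 and the BM libraries 0.28, and leaving out wildtype replicate 3 gave -0.66. Wildtype replicate 3 had the lowest Cdh16, Cdh1 and summed ureteric epithelium level, and deleted replicate 2 the second lowest of each. None of the 9 epithelial markers was at 0 in any library, and their sums were 237.2 to 357.3 FPKM in deleted and 98.2 to 378.5 FPKM in wildtype kidneys; their part in the values of Cdh1 and Cdh16 was not tested.

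**Figure D2:**
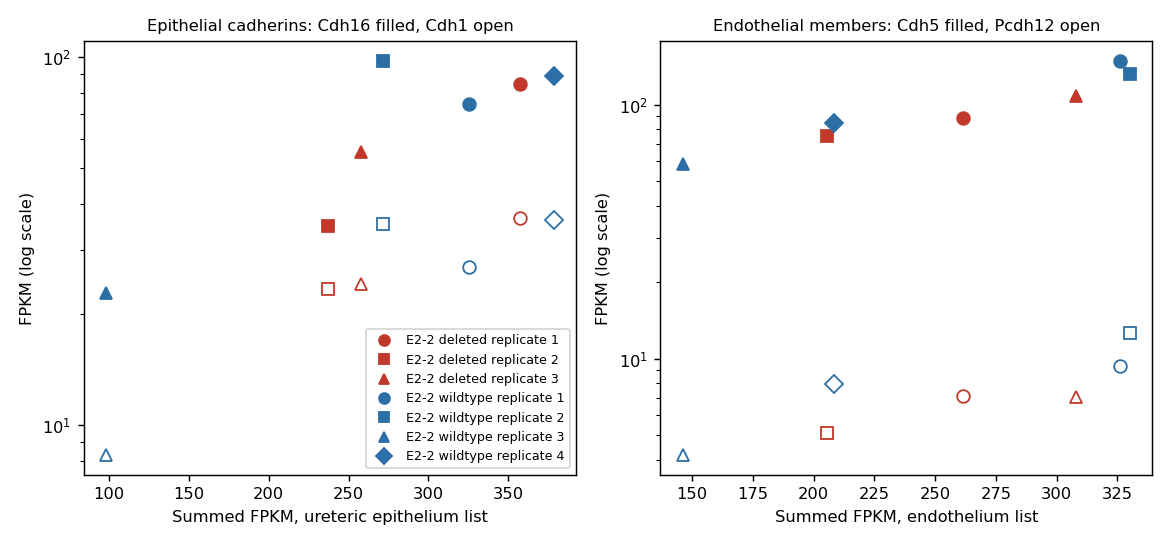
FPKM (log axis) of Cdh16 and Cdh1 against the summed FPKM of the ureteric epithelium list (left), and of Cdh5 and Pcdh12 against that of the endothelium list (right), 1 point per library and gene, red for E2-2 deleted and blue for E2-2 wildtype. Wildtype replicate 3 sits at the low end of both axes in both panels, at 98.2 and 146.1 FPKM.

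Cdh13 (T-cadherin, held in the membrane by a lipid anchor without a cytoplasmic tail) was at 6.84, 12.3 and 7.42 FPKM in deleted and 12.2, 10.6, 5.61 and 8.01 FPKM in wildtype kidneys, a difference of -0.03 (SE 0.28). Neither genotype stood on 1 side. Cdh17, the liver-intestine cadherin, was at 0.242, 0.241 and 0.0874 FPKM in deleted and 0.0497, 0.146, 0.0117 and 0.108 FPKM in wildtype kidneys. Cdh23, which forms the tip link of hair cells with Pcdh15, was at 0.129, 0.301 and 0.291 FPKM in deleted and 0.145, 0.289, 0.0319 and 0.0728 FPKM in wildtype kidneys. Cdh26, of allergic and gastrointestinal epithelium, was at 0.172, 0.458 and 0.167 FPKM in deleted and 0.241, 0.176, 0.241 and 0.229 FPKM in wildtype kidneys. These 3 were below the level tested.

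Summed over all members, type I cadherins were at 85.5 ± 12.2 FPKM in deleted (SD, n = 3) and 87.1 ± 7.38 FPKM in wildtype kidneys (SD, n = 4), and type II cadherins at 351.9 ± 20.0 and 364.3 ± 34.0 FPKM in the same order. The other Cdh genes were at 67.6 ± 22.2 FPKM in deleted and 80.5 ± 35.5 FPKM in wildtype kidneys. Each of these 3 gaps was smaller than the spread within either genotype.

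Non-clustered protocadherins held the member with the largest difference, Pcdh10, a delta-2 protocadherin studied for axon growth and as a methylated gene in tumours. Pcdh10 (chromosome 3, 45182320 to 45238501) was at 4.63, 12.9 and 8.61 FPKM in deleted and 5.21, 5.80, 2.09 and 1.63 FPKM in wildtype kidneys. Deleted replicates 2 and 3 lay above all wildtype kidneys, while deleted replicate 1 lay below wildtype replicates 1 and 2. The means were 8.71 ± 4.13 FPKM (SD, n = 3) in deleted and 3.68 ± 2.13 FPKM (SD, n = 4) in wildtype kidneys, a difference of 1.08 (SE 0.43, interval 0.08 to 2.07; unadjusted p = 0.0370, limma adjusted p = 0.795; exact permutation p = 0.171). It was 0.44 within BI and 1.75 within BM.

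Pcdh18, the most abundant non-clustered protocadherin and also of the delta-2 group, was at 37.2, 49.1 and 44.2 FPKM in deleted and 37.8, 40.9, 26.6 and 28.7 FPKM in wildtype kidneys, a difference of 0.38 (SE 0.18; adjusted p = 0.795). Like Pcdh10 it was highest in deleted replicates 2 and 3 and lowest in wildtype replicates 3 and 4, both of the BM prefix. Pcdh7 (BH-protocadherin, of the delta-1 group) was at 16.7, 38.0 and 19.1 FPKM in deleted and 16.7, 17.2, 25.2 and 13.6 FPKM in wildtype kidneys, a difference of 0.36 (SE 0.30). Its high value came from deleted replicate 2, without which the difference was 0.010, and its second highest from wildtype replicate 3.

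Promoters of Pcdh10, Pcdh18 and Pcdh7, and of Cdh24 from the type II cadherins, are shown because E2-2 binds the E-box, CANNTG, a motif that reads the same on both strands. The windows run from 250 bases before to 50 bases after the start of the RefSeq gene (GRCm38.p6; Pcdh10 at chr3:45378148-45378447, plus strand; Pcdh18 at chr3:49757267-49757566, minus strand; Pcdh7 at chr5:57717831-57718130, plus strand; Cdh24 at chr14:54641315-54641614, minus strand), each written 5′ to 3′ with E-boxes in capitals.
Pcdh10: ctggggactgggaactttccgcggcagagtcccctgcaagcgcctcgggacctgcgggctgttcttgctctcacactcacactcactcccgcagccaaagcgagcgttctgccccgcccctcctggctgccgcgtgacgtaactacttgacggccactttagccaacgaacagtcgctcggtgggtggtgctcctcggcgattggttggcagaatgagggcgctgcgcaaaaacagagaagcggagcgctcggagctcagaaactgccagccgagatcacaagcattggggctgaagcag
Pcdh18: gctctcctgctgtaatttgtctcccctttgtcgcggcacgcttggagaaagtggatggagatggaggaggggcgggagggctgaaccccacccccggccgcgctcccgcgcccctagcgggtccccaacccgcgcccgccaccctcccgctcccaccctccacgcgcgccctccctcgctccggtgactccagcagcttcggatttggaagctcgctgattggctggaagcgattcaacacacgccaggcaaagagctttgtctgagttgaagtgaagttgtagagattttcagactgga
Pcdh7: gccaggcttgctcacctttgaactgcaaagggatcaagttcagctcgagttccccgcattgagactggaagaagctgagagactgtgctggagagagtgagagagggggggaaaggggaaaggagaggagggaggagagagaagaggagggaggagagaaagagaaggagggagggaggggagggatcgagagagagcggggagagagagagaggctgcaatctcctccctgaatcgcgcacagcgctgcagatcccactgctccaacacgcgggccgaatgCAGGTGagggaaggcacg
Cdh24: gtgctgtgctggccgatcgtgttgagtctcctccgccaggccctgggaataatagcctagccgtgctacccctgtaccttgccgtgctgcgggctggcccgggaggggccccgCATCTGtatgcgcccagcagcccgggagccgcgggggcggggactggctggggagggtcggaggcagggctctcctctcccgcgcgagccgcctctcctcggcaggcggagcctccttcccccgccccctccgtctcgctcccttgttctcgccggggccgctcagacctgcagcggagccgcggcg
The Pcdh10 and Pcdh18 windows held no E-box. Those of Pcdh7 and Cdh24 held 1 each, CAGGTG after the start and CATCTG before it. Of the 22 members with a promoter in the RefSeq table, 13 had at least 1 CANNTG in any of their windows, and of the 11 tested ones 6 had. Counted by single window, 72.3% of all 32851 held a CANNTG and 20.2% held CACCTG or CAGGTG. The members were counted by gene, so their share is not the same measure. A match is only a run of letters, and nothing about E2-2 binding follows from its presence or absence.

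Pcdh11x (delta-1, X-linked) was at 1.13, 2.36 and 1.25 FPKM in deleted and 0.899, 0.908, 1.07 and 1.01 FPKM in wildtype kidneys. The groups did not overlap, though deleted replicate 1 exceeded wildtype replicate 3 by little. Its difference was 0.36 (SE 0.20; adjusted p = 0.795; exact permutation p = 0.0286, the smallest possible), and 0.15 without deleted replicate 2. Pcdh9 (delta-1, of the nervous system) was at 4.87, 6.60 and 6.23 FPKM in deleted and 4.66, 5.15, 4.39 and 5.31 FPKM in wildtype kidneys, a difference of 0.23 (SE 0.14), with deleted replicate 1 inside the wildtype range.

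Pcdh1, a delta-1 protocadherin of epithelia, differed in the other direction. It was at 20.8, 18.9 and 23.7 FPKM in deleted and 32.5, 32.1, 12.5 and 19.9 FPKM in wildtype kidneys, a difference of -0.10 (SE 0.31; -0.68 within BI and 0.56 within BM). Both signs came from the wildtype libraries, whose BI pair was at 32 FPKM or more and whose BM pair was at 20 FPKM or less. Pcdh17 and Pcdh19 had differences of 0.41 (SE 0.34) and 0.09 (SE 0.17). Pcdh8, the paraxial protocadherin of segmenting mesoderm, Pcdh15 and Pcdh20 were not tested, with no value above 1.06 FPKM. The summed level of the 12 non-clustered genes was 101, 139.6 and 119.7 FPKM in deleted and 115.5, 124.8, 81.1 and 83.6 FPKM in wildtype kidneys, with log2 differences of -0.02 within BI and 0.54 within BM.

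**Figure D3:**
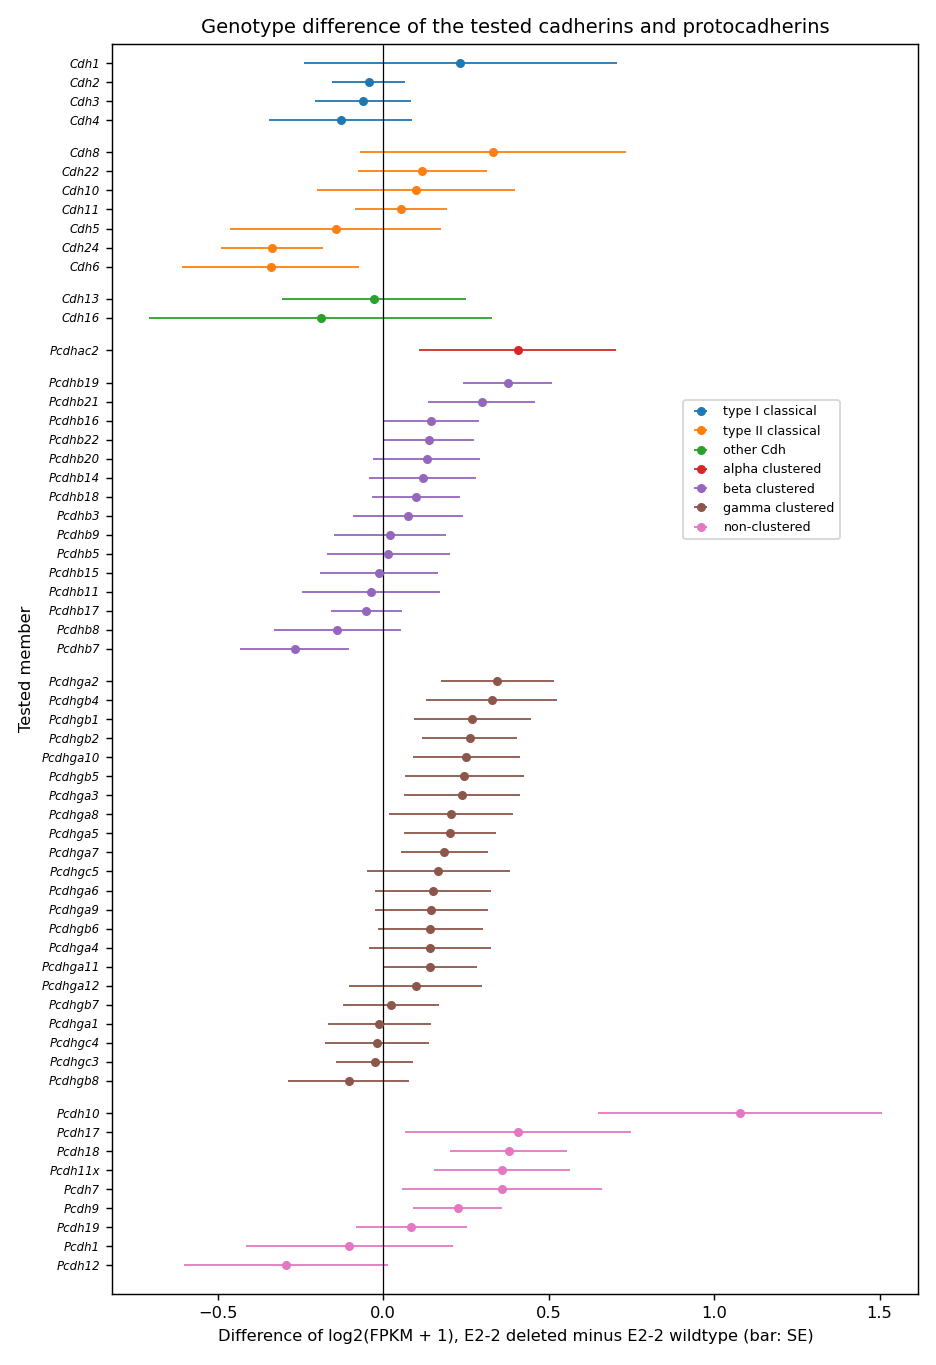
Difference of log2(FPKM + 1), E2-2 deleted minus E2-2 wildtype, with its SE for each of the 60 tested members, grouped by subfamily. Pcdh10 lies farthest right at 1.08, 18 of 22 gamma genes lie right of 0, and no member passed the threshold.

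Beta protocadherins, which are intronless genes of high similarity to each other, were low and even across libraries, and 15 of 22 were tested. Their summed level over all 22 was 40.5, 43.7 and 41.0 FPKM in deleted and 40.1, 39.0, 38.5 and 38.5 FPKM in wildtype kidneys. Every deleted sum lay above every wildtype sum, with a gap of less than 1 FPKM between deleted replicate 1 and wildtype replicate 1. Of the 15 tested, 10 had a positive difference, with a median of 0.08, against 39.3% of all genes. Under quantile normalization the number was 7, against 44% of all genes.

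Pcdhb19 had the smallest p of all members. It was at 3.73, 4.32 and 3.38 FPKM in deleted and 2.94, 2.51, 2.52 and 2.83 FPKM in wildtype kidneys, without overlap. The difference was 0.38 (SE 0.13, interval 0.07 to 0.69; unadjusted p = 0.0233, limma adjusted p = 0.795; exact permutation p = 0.0286, the smallest possible), and it was 0.43 within BI and 0.26 within BM. Pcdhb21, of the same array, was at 2.08, 3.12 and 2.31 FPKM in deleted and 1.82, 1.56, 2.00 and 1.93 FPKM in wildtype kidneys, also without overlap (difference 0.30, SE 0.16).

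Pcdhb7 was the member below in every deleted library. It was at 1.60, 1.02 and 1.69 FPKM in deleted and 2.01, 1.83, 1.799 and 2.00 FPKM in wildtype kidneys, a difference of -0.27 (SE 0.16; adjusted p = 0.795). Pcdhb17 and Pcdhb22 were the most abundant beta genes. Pcdhb17 was at 5.52, 6.46 and 6.28 FPKM in deleted and 6.20, 6.73, 6.33 and 6.05 FPKM in wildtype kidneys. Pcdhb22 was at 6.14, 5.82 and 4.83 FPKM in deleted and 5.82, 5.28, 4.43 and 4.48 FPKM in wildtype kidneys. Both overlapped between genotypes (differences of -0.05 and 0.14, SE 0.11 and 0.14). Reads shared by near-identical beta genes could be split between them, so values of single beta genes are uncertain.

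Gamma protocadherins were dominated by Pcdhgc3, a C-type isoform expressed outside the nervous system too. Pcdhgc3 was at 52.7, 48.6 and 45.4 FPKM in deleted and 44.9, 55.0, 54.8 and 45.0 FPKM in wildtype kidneys, a difference of -0.02 (SE 0.12, interval -0.29 to 0.24). It made up 41.0% to 52.8% of the summed gamma level in each library. All 22 gamma genes were tested, and 18 had a positive difference (median 0.16), against 39.3% of all genes. The 19 A- and B-type genes summed to 57.7, 66.0 and 59.5 FPKM in deleted and 56.7, 57.5, 46.4 and 48.9 FPKM in wildtype kidneys. Every deleted sum of these 19 exceeded every wildtype sum, by a narrow margin between deleted replicate 1 and wildtype replicate 2. The sum over all 22 was 113.2, 118.5 and 107.2 FPKM in deleted and 104.3, 115.7, 103.7 and 96.3 FPKM in wildtype kidneys. It overlapped between genotypes, and the split by type was not planned. The 3 C-type genes summed to 55.5, 52.4 and 47.7 FPKM in deleted and 47.6, 58.2, 57.3 and 47.4 FPKM in wildtype kidneys, with full overlap.

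Deleted replicate 2 was the highest library for 11 of the 19 A- and B-type genes and wildtype replicate 3 the lowest for 11. Without deleted replicate 2, 17 of 22 gamma genes had a positive difference, while the share over all genes rose from 39.3% to 53.3%. Pcdhgb2 was the gamma gene whose groups did not overlap, at 2.75, 2.92 and 2.65 FPKM in deleted and 2.22, 2.45, 1.73 and 2.25 FPKM in wildtype kidneys (difference 0.26, SE 0.14; adjusted p = 0.795). Pcdhga2 had the smallest p of the cluster, at 3.21, 3.85 and 3.58 FPKM in deleted and 2.65, 3.497, 2.22 and 2.08 FPKM in wildtype kidneys (difference 0.35, SE 0.17; unadjusted p = 0.0773). Wildtype replicate 2 overlapped the deleted range there.

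Pcdhgb4 was at 2.26, 3.61 and 2.23 FPKM in deleted and 1.60, 2.58, 1.65 and 1.89 FPKM in wildtype kidneys (difference 0.33, SE 0.20). Pcdhgb6, the most abundant A- or B-type gene, was at 6.66, 7.01 and 7.65 FPKM in deleted and 7.91, 6.32, 4.76 and 6.71 FPKM in wildtype kidneys (0.14, SE 0.16). Pcdhga3 was at 4.43, 5.99 and 4.95 FPKM in deleted and 4.26, 5.56, 3.40 and 3.69 FPKM in wildtype kidneys (0.24, SE 0.17). All 3 overlapped between genotypes. The constant exons are common to the gamma genes, so how reads were shared among them depends on the authors' estimation, and 22 signs are not 22 independent observations.

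**Figure D4:**
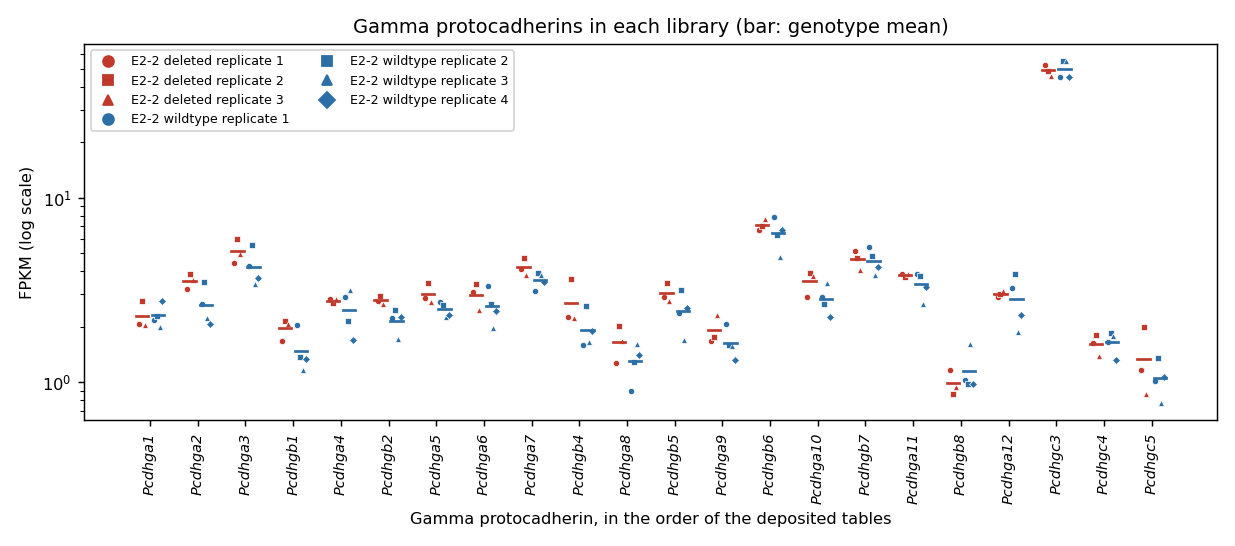
FPKM (log axis) of the 22 gamma protocadherins in the order of the deposited tables, red for E2-2 deleted and blue for E2-2 wildtype libraries, with bars at genotype means. Pcdhgc3 stands alone at 44.9 to 55.0 FPKM, and the A- and B-type genes lie between 0.869 and 7.91 FPKM with overlapping genotypes in all but Pcdhgb2.

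Alpha protocadherins, the most neuronal of the 3 arrays, were the lowest of them. Their 15 genes summed to 2.00, 3.72 and 6.65 FPKM in deleted and 4.82, 2.84, 1.44 and 0.975 FPKM in wildtype kidneys. Only Pcdhac2, a C-type isoform, passed the filter, at 0.919, 1.35 and 2.50 FPKM in deleted and 1.74, 0.989, 0.633 and 0.441 FPKM in wildtype kidneys (difference 0.41, SE 0.30; adjusted p = 0.795). The remaining 14 reached no more than 0.727 FPKM in any library. The summed alpha level varied more between libraries of a genotype than between genotypes. Its difference of log2 sums, with nothing added, was -0.44 within BI and 2.49 within BM. That scale gives low sums a larger difference than the log2(FPKM + 1) scale used for Pcdhac2, so these values are not the same measure.

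The libraries with the highest alpha sums, deleted replicate 3 and wildtype replicate 1, were also the highest in summed neuron markers. Of these markers Elavl4 did not follow, with 9.62 FPKM in wildtype replicate 4, above 9.23 FPKM in deleted replicate 3. The neuron list (Stmn2, Elavl4, Th and Snap25, none at 0) summed to 18.9, 36.3 and 102.1 FPKM in deleted and 81.3, 39.5, 16.6 and 17.0 FPKM in wildtype kidneys. Cdh10, a cadherin of brain, and Cdh19, a cadherin of Schwann cell precursors, were also highest in deleted replicate 3 and wildtype replicate 1. Cdh10 was at 0.695, 0.769 and 1.96 FPKM in deleted and 1.47, 1.44, 0.547 and 0.494 FPKM in wildtype kidneys. Cdh19 was at 0.243, 0.471 and 1.26 FPKM in deleted and 1.17, 0.523, 0.120 and 0.0771 FPKM in wildtype kidneys. Ctnna2, the neuronal alpha-catenin, was at 0.625, 2.23 and 4.36 FPKM in deleted and 3.42, 1.26, 0.621 and 0.233 FPKM in wildtype kidneys. The glia and neural crest list (Sox10, Foxd3 and Fabp7, none at 0) had the same highest libraries, with sums of 8.03, 7.61 and 32.1 FPKM in deleted and 25.1, 7.65, 4.66 and 4.04 FPKM in wildtype kidneys. The part of nerve cells and glia in these levels was not tested.

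**Figure D5:**
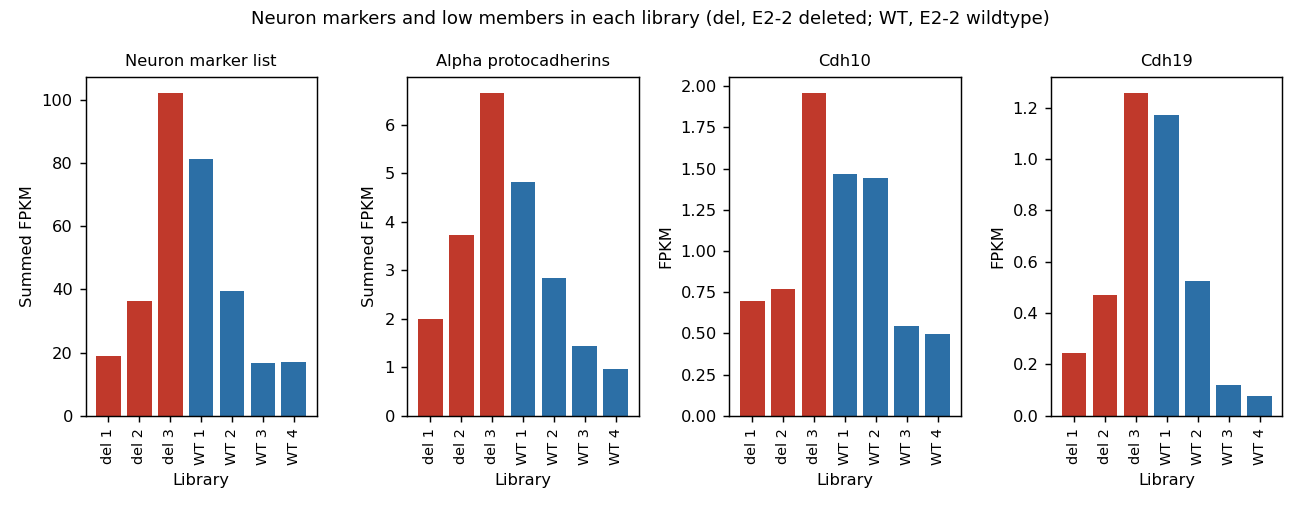
Bars give, for each library, the summed FPKM of the neuron marker list and of the 15 alpha protocadherins, and the FPKM of Cdh10 and Cdh19; red is E2-2 deleted (del) and blue E2-2 wildtype (WT). Deleted replicate 3 and wildtype replicate 1 are the highest libraries in all 4 panels, with 102.1 and 81.3 FPKM of neuron markers.

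Partners of the members were followed in 4 lists. In these, 0 genes passed the limma threshold (0% of all genes tested) and 0 reached an unadjusted p under 0.05 (4.49% of all genes tested). Over all genes tested, 39.3% of differences were above 0. In the catenin and adherens junction list 17 of 25 tested genes had a positive difference (median 0.04). Ctnnb1, beta-catenin itself, was at 512.4, 636.4 and 578.8 FPKM in deleted and 510.7, 506.7, 415.2 and 408.0 FPKM in wildtype kidneys (difference 0.33, SE 0.18; adjusted p = 0.795), with deleted replicate 1 only just above the wildtype range. Ajap1, a membrane protein of adherens junctions, differed by 0.40 (SE 0.26), and Pvrl2, a nectin, by -0.23 (SE 0.16). Among cadherin superfamily genes outside the rule 11 of 14 tested had a positive difference (median 0.17). Fat1, a giant protocadherin that orients cells, was at 59.1, 109.6 and 52.7 FPKM in deleted and 48.5, 56.9, 49.7 and 47.2 FPKM in wildtype kidneys (0.46, SE 0.24), again highest in deleted replicate 2, and Fat4 differed by 0.16 (SE 0.10). Celsr2, a cadherin of planar cell polarity, differed by -0.32 (SE 0.20).

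Among regulators of the clustered arrays 12 of 13 tested had a difference below 0 (median -0.09, against -0.05 over all genes, of which 39.3% were above 0). Deleted replicate 2 was the lowest library for nearly all of these 12, and within BM several of their differences were above 0. Rad21, a cohesin subunit that holds the loops between cluster promoters and enhancers, was at 118.7, 88.3 and 118.6 FPKM in deleted and 121.3, 112.4, 108.4 and 123.0 FPKM in wildtype kidneys (-0.11, SE 0.14). Dnmt3b, which methylates cluster promoters, was at 4.63, 1.96 and 4.07 FPKM in deleted and 4.11, 4.37, 3.71 and 4.88 FPKM in wildtype kidneys (-0.26, SE 0.23). In both genes deleted replicate 2 was the lowest library, and the other deleted kidneys lay among the wildtype values. Among the 15 signalling partners of protocadherins 7 were positive and 8 negative (median -0.04), with Dab1, an adaptor of neuronal migration, at 0.38 (SE 0.24) and Ppp1ca, a phosphatase subunit, at -0.29 (SE 0.19).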

How the data were processed

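RNA of cultured fetal mouse kidneys (7 libraries, 3 E2-2 deleted and 4 E2-2 wildtype) was sequenced after poly-A selection and a TruSeq RNA library, per the labels' protocols. Each library's table holds 23699 entries with the authors' FPKM, its bounds and a status, per the file headers. The submitters' processing notes list CASAVA 1.8.2, TopHat2 2.0.4 and Cufflinks 2.0.2 but say nothing of their roles, and the sources used here do not name the genome build. A RefSeq gene list of GRCm38.p6 held 93 members, 0 of them at the same coordinates, so the members' coordinates are those of the deposited tables, counted from 1, with no build.

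Entries of a symbol were summed (248 symbols had more than 1), and 25 symbols turned into dates in 1 table were restored from the others. Symbols without the status OK in every library (203) and small RNAs were left out. Genes with a mean of at least 1 FPKM (13466) were compared as log2(FPKM + 1) with limma 3.58.1 in R 4.3.3 (genotype only, trended prior, 2-sided). Adjusted p-values are Benjamini-Hochberg over all genes, with a threshold of 0.05. An exact permutation test over libraries was run for single members and for 4 ratios of members. The script was tested on simulated data. Fragments were inferred as the square of 2 times the FPKM over the distance to the upper bound; among genes with 1 start and under 300 such fragments, 78.9% to 80.2% lay within 0.05 of a whole number. Low genes are measured less precisely.

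Values in every library are given for Cdh1, Cdh2, Cdh3, Cdh4, Cdh5, Cdh6, Cdh11, Cdh13 and Cdh16, tested members with non-overlapping groups, the 10 of smallest p and the 5 most abundant of each set; Pcdhac2, Cdh10, Cdh19, Ctnna2 and Col1a1 were added after their values were seen. The members and lists were chosen with earlier results of these data known; 1 gene of the neuron list and 2 of the glia list are not reported here and are left out of the sums. Alternatives were another pseudocount, minimum, scaling, library weights, prefix as a term, the highest entry of a symbol, failed estimates kept, and leaving out each library.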

Additional observations from a re-analysis of the deposited data

How the results depend on the processing

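No paired analysis was possible because the labels give no replicate numbers that link libraries. Under every alternative 0 members passed the threshold. Over all genes 1 passed with no minimum FPKM (Ndufs5) and 1 with a weight per library (9130015A21Rik). Genes at an unadjusted p under 0.05 numbered 605, and 1000 with no minimum, 394 at a minimum of 5 FPKM and 1143 with weights, and 250 (without deleted replicate 2) to 1473 (without deleted replicate 1) with a library left out. Members at that p numbered 2, and 1 at a minimum of 5 FPKM, 1 under quantile normalization, 5 with weights and 0 to 4 with a library left out (0 without deleted replicate 2, 4 without deleted replicate 1, 1 without deleted replicate 3 or wildtype replicate 4). Members without overlap numbered 5, and 0 at a minimum of 5 FPKM and 1 under quantile normalization. At the minimum of 5 FPKM only 20 members were tested. All 5 members without overlap averaged less than that and were removed, so the 0 was fixed by the filter. Pcdhb19 left the members at an unadjusted p under 0.05 in the same way. With a library left out they numbered 5 to 15 (15 without deleted replicate 1, 8 without deleted replicate 3, 10 and 11 without wildtype replicates 1 and 2). With fewer libraries the groups of any gene separate more easily. The same count over all genes was not made for these settings, so the rise is not a result about the members. In the partner lists no gene reached that p in the fit reported, but 1 other superfamily gene did with no minimum, 1 catenin list gene with weights, and 0 to 1 of the catenin, superfamily and signalling lists with a library left out. The summed beta difference was 0.10, and 0.15 under median-of-ratios scaling and 0.010 under quantile normalization. At a minimum of 5 FPKM it was 0.046, but of the beta genes only Pcdhb17 and Pcdhb22 were left there. The summed gamma difference was 0.11, and -0.0061 at a minimum of 5 FPKM, which leaves 2 gamma genes.

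Differences near 0 changed sign. Those of Cdh2, Cdh13 and Pcdhgc3 were 0.0062, 0.021 and 0.026 under median-of-ratios scaling, and those of Cdh2 and Pcdhgc3 0.013 and 0.044 under quantile normalization; with weights those of Cdh1, Cdh3 and Pcdhb22 were -0.060, 0.0265 and -0.047. With a library left out the ranges were -0.26 to 0.12 for Cdh13, -0.088 to 0.0087 for Pcdhb17, -0.045 to 0.12 for Cdh11, -0.66 to 0.13 for Cdh16, -0.078 to 0.026 for Pcdhgc3, -0.40 to 0.048 for Cdh5, -0.37 to 0.066 for Pcdh1, -0.23 to 0.44 for Cdh1, -0.11 to 0.014 for Cdh2 and -0.13 to 0.062 for Cdh3. Without deleted replicate 2 the differences of Pcdhb21, Pcdhb7, Pcdhga3, Pcdhgb4 and Pcdh12 were 0.18, -0.14, 0.14, 0.16 and -0.16, and that of Pcdh12 was -0.093 and -0.56 without wildtype replicates 2 and 3. The cause of these changes was not tested. Count-based tests were not run, since the tables hold FPKM. Depth limits the low members: inferred fragments fell to 28.2 in the lowest library of Cdh8 and were at least 12640 for Cdh11.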

Other observations

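The ratio of Cdh1 to Cdh16, the pair of cadherins of kidney epithelium, did not overlap between genotypes, although neither gene passed the test alone. It was 0.434, 0.675 and 0.440 in deleted replicates 1 to 3 and 0.359, 0.361, 0.362 and 0.406 in wildtype replicates 1 to 4. All 4 wildtype libraries fell in a narrow band, wildtype replicate 3 with its low level of both genes included, and every deleted library lay above it. This ratio was 1 of 4 computed, all chosen after the levels of the genes had been seen. An exact permutation test gave p = 0.0286, the smallest possible, and 0.114 adjusted over the 4 by Benjamini-Hochberg. Because the ratios were picked from seen values, the gap is a description only. Ratios of Cdh1 to Cdh11 and to Cdh3 overlapped, with deleted means of 0.125 and 1.17 and wildtype means of 0.124 and 1.14.

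The share of Pcdh18 among non-clustered protocadherins did not overlap between genotypes either. It took 36.8%, 35.1% and 36.9% of the summed non-clustered level in deleted kidneys and 32.7%, 32.8%, 32.8% and 34.3% in wildtype kidneys, while the sums themselves overlapped. Shares computed for Cdh11, Cdh5, Cdh1, Cdh2, Cdh3, Cdh6, Cdh16, Pcdhgc3, Pcdh1 and Pcdh7, each within its own set, overlapped between genotypes. The Pcdh18 gap, between 35.1% in deleted replicate 2 and 34.3% in wildtype replicate 4, was noticed in the values and was not tested.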
